A study of Homo sapiens with 6 samples.

Results

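Inflammatory cytokines and chemokines are small secreted proteins that carry signals between cells, and the 10 genes described here are IL6, CXCL8 (IL8 in older annotation), IL1A, IL1B, CXCL1, CXCL2, CXCL3, CCL2, IL11 and LIF. They were taken as every probe set annotated to exactly 1 of these genes, which gave 14 probe sets for 10 of the 11963 genes named on the array. Expression was measured in A-498, an established human line from a renal cell carcinoma, using 3 untreated cultures (0 µM) and 3 cultures given 1000 µM zebularine, each for 120 h. Zebularine is a cytidine analogue that inhibits DNA methyltransferases. Per the labels all cultures grew as monolayers in RPMI-1640 with calf serum and were split on day 3 and day 5, and the untreated and treated culture of 1 replicate number share an experiment name. One cell line was used, so the replicates are cultures of the same line, and fewer expressing cells cannot be told apart from less RNA per cell.

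The members work in a chain. IL1A and IL1B, the interleukin-1 cytokines, signal through IL1R1 and its partner IL1RAP to NF-kappaB and AP-1, which in turn switch on IL6, CXCL8, CXCL1, CXCL2, CXCL3 and CCL2 in many cell types, kidney epithelium included. CXCL8, CXCL1, CXCL2 and CXCL3 attract neutrophils through CXCR1 and CXCR2, and CCL2 attracts monocytes through CCR2. IL6, IL11 and LIF share the receptor subunit IL6ST, which signals through JAK kinases and STAT3. Several of these cytokines are also part of what senescent cells secrete.

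CXCL8, IL6 and 1 of the 2 probe sets of IL1B (39402_at) were higher in the treated culture of every experiment, which makes 3 of the 8 tested member probe sets, against 20.9% of all tested ones. CXCL8 went from a mean signal of 92.4 ± 54.7 to 930 ± 675, IL6 from 114 ± 39 to 543 ± 502, and IL1B, at 39402_at, from 68.9 ± 36 to 237 ± 23.3 (SD, n = 3). LIF and CXCL2 differed by less than their spread, IL1A and CCL2 had lower treated means that also lay within it, and CXCL1, CXCL3 and IL11 were below the filter on dim signals. None of the 8 tested probe sets, which cover 7 of the 10 genes, passed limma's test at a Benjamini-Hochberg adjusted p under 0.05, although 4 of them had an unadjusted p under 0.05. Over all 13545 tested probe sets that test called 0.620% in either direction, and 12.6% had an unadjusted p under 0.05.

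The experiment numbers paired the arrays, so the same test was also run with the experiment as a block. It called 3 of the 8 member probe sets higher, those of CXCL8, IL6 and IL1B, where it called 1.90% of all tested probe sets higher. It called 0 of the 8 lower, where it called 2.32% of all lower. With the block 5 of the 8 had an unadjusted p under 0.05, 4 of them higher and 1 (CCL2) lower, against 20.7% of all tested probe sets. In the same 3 probe sets all 3 treated arrays lay above all 3 untreated ones, which was so for 8.71% of all tested probe sets. The median log2 difference was 0.78 over the 8 tested member probe sets and -0.01 over all tested probe sets. No tested member probe set reached the filter level on all 3 treated arrays and on no untreated one. However, CXCL8 (202859_x_at), IL6 and both IL1B probe sets reached it on 3 treated and 2 untreated arrays. As the filter asked for 3 arrays, their untreated arrays alone would not have passed it. The counts above therefore depend in part on the treated arrays having let these probe sets be tested.

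Array medians lay between 117.9 and 140.7 signal units. Both arrays of experiment 3 had lower maxima, of 31176 untreated and 27500 treated, against 58719 to 62832 on the other 4. With 3 arrays a group, the number of arrays limits precision throughout. Kidney epithelium markers were present, with the keratin gene KRT18 at 12161 to 21526 and the renal transcription factor gene PAX8 at 636 to 1237 across the arrays, while the epithelial genes CDH1 and EPCAM were dim, at 5.5 to 64.5 and 12.9 to 70.1. Of 9 such markers on the array 6 were tested and 1 was called, where 0.642% of all tested genes were called without the block and 4.45% with it. The called gene was CDH6, a cadherin of renal epithelium, which was lower. It read 1407, 2209 and 584 untreated and 174.5, 102.8 and 209 treated at the brightest of its 5 probe sets. It fell by 2.85 ± 0.42 on the log2 scale (limma, adjusted p = 0.0206 unblocked, 0.00397 blocked), a call lost in the unblocked fits without untreated 1 and without zebularine 2 (adjusted p up to 0.152). Of the 9 fits on all arrays 8 called CDH6, and the fit without the intensity trend did not. The summed signal of the kidney markers was 23530 to 31628 in untreated and 17583 to 23464 in treated cultures. Most of it came from KRT18, with means of 18806 untreated and 14950 treated. Of the 6 tested kidney markers 1 had a positive difference, the keratin gene KRT19, named after its values were seen. It read 34.5, 230.6 and 77.9 untreated and 209.8, 275 and 384.9 treated (1.49 ± 0.51, limma, adjusted p = 0.251 unblocked, 0.0591 blocked). Leukocytes are a major source of these cytokines in tissue. Of 11 leukocyte markers on the array 2 were bright enough to test and 0 were called in limma, with or without the block, and their summed signal was 382 to 515 in untreated and 549 to 621 in treated cultures. The pan-leukocyte gene PTPRC read 9.8 to 56, the monocyte gene CD14 5.2 to 60.7 and the myeloid gene LYZ 1.7 to 16.9, all under the filter level of 78.6 signal units. Not every untested marker stayed under it. CSF1R read 37.1, 138.7 and 57.1 untreated and 19.5, 185.3 and 8.3 treated, and CD3D reached 99.2 in untreated experiment 1. Of the tested ones ITGAM, a myeloid integrin gene, read 121.3, 11.7 and 87.5 untreated and 137.2, 111.7 and 126.6 treated (0.94 ± 0.60, limma, adjusted p = 0.559 unblocked, 0.344 blocked). FCER1G, an Fc receptor chain gene, read 132.8, 72.1 and 67.3 untreated and 177.7, 64.3 and 211 treated (0.56 ± 0.49, limma, adjusted p = 0.685 unblocked, 0.503 blocked). Fibroblast and endothelial markers had 3 of 12 genes tested and 0 called in either limma fit, with a summed signal of 648 to 750 in untreated and 865 to 1108 in treated cultures. The brightest were the collagen gene COL1A1, at 0.94 ± 0.37 (limma, adjusted p = 0.313 unblocked, 0.0817 blocked), and THY1, at 0.55 ± 0.52 (adjusted p = 0.709 unblocked, 0.577 blocked). TEK, also tested, went the other way, at -0.84 ± 0.63 (limma, adjusted p = 0.619 unblocked, 0.487 blocked). Of the untested ones COL1A2, another collagen gene, read 47.7, 98.7 and 69.8 untreated and 6.7, 40.1 and 34.2 treated. VWF read 11.4, 7.1 and 20.5 untreated and 98.3, 99.5 and 22.1 treated. The part of these shifts in the results below was not tested.

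**Figure D1:**
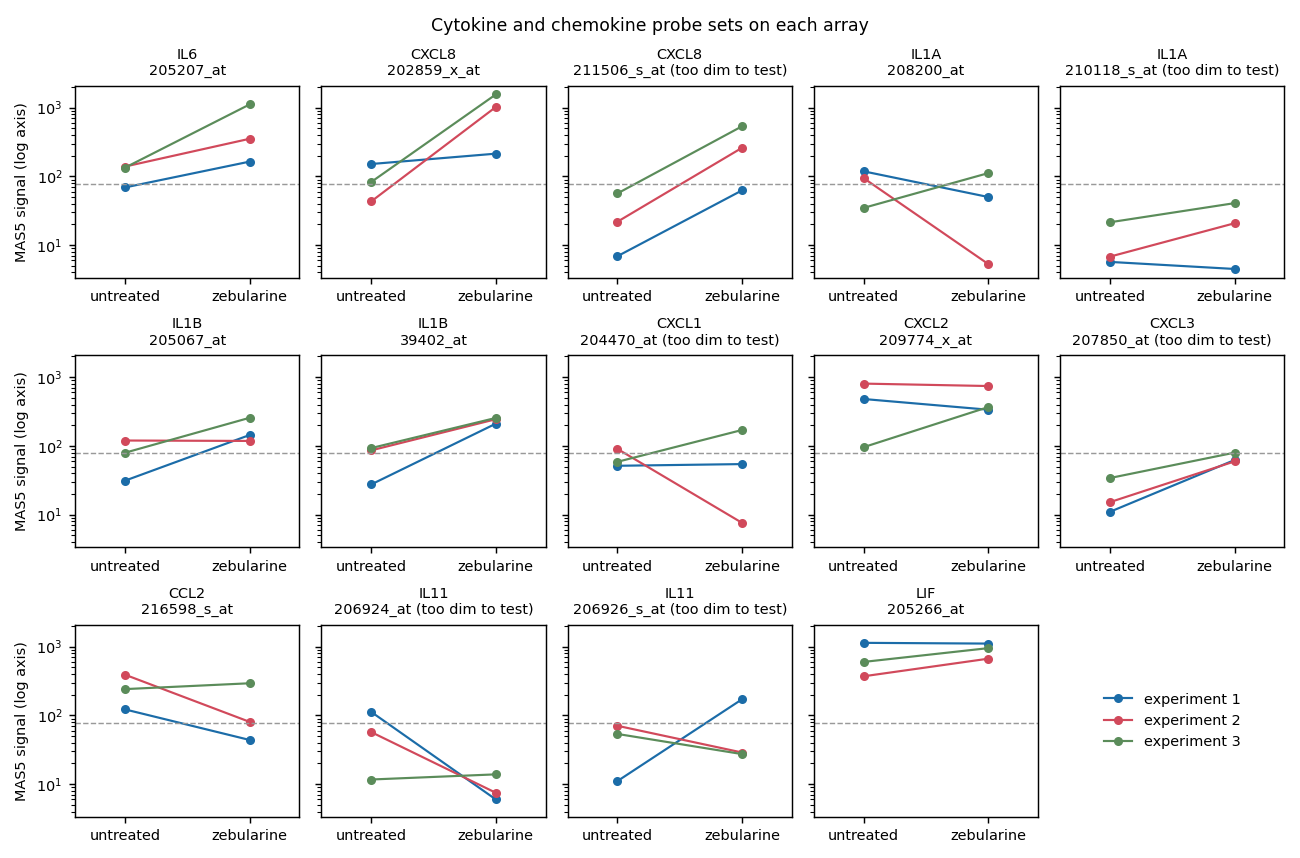
MAS5 signal (log axis) of the 14 probe sets on each array, untreated on the left and zebularine on the right, with a line for each of the 3 experiments and a dashed line at the filter level of 78.6. The lines of IL6, both CXCL8 probe sets, IL1B 39402_at and CXCL3 rise in all 3 experiments, while those of IL1A, CXCL1, CXCL2, CCL2 and IL11 go in different directions.

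Interleukin-1 comes first in the chain. IL1B, which is made as an inactive precursor and cut by caspase-1 (CASP1), has 2 probe sets, both tested. At 39402_at its signals were 27.5, 86.1 and 93 in untreated experiments 1, 2 and 3 and 211, 244 and 255 in the treated ones. All treated arrays lay above all untreated ones, and the rise was largest in experiment 1, where the untreated signal was lowest. The log2 difference was 1.68 ± 0.44 (standard error). It was not called by limma without the block (adjusted p = 0.118) and was called with it (adjusted p = 0.0327). At 205067_at the signals were 31.2, 120 and 79.5 untreated and 144, 118 and 256 treated, so that experiment 2 showed no rise and the groups overlapped. The log2 difference there was 1.08 ± 0.50, not called by limma in either fit (adjusted p = 0.397 unblocked, 0.2 blocked), and it was 0.66 without untreated 1. The blocked call of 39402_at was lost without experiment 1 (1.33, adjusted p = 0.159) and without experiment 3 (1.86, adjusted p = 0.0622), and in the blocked fit with no filter on dim signals (adjusted p = 0.0864).

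The RefSeq promoter window of IL1B, 250 bases before to 50 after the start of the gene (GRCh38.p14, chr2:112836730-112837029, minus strand), is shown because it held few CG dinucleotides, the site of the methylation that the drug's target enzymes copy. It had 2 CG, against a median of 14 over 35116 windows of the same length, and no match to the strings searched below.

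IL1B: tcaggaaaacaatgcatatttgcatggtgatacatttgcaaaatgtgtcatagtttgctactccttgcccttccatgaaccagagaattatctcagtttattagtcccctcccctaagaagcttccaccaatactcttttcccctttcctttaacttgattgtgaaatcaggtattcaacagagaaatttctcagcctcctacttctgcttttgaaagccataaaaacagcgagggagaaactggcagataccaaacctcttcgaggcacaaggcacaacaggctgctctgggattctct

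IL1A, the form of interleukin-1 released by damaged cells, was not higher. At 208200_at its signals were 118, 94.2 and 34.8 untreated and 50.1, 5.3 and 112 treated. It was lower in experiments 1 and 2 and higher in experiment 3, and the log2 difference of -0.68 ± 0.75 had a 95% interval of -2.31 to 0.94 (limma, adjusted p = 0.754). The sign rested on 1 array, since the difference was 0.01 without the treated array of experiment 2. The other probe set, 210118_s_at, read 4.5 to 40.8 on all arrays and was not tested.

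IL6 belongs to the next step, and acts on many tissues as the main inducer of the acute phase response. Its signals were 69, 139 and 134 in untreated experiments 1, 2 and 3 and 164, 352 and 1112 in the treated ones. Every treated array lay above every untreated one, by a narrow margin in experiment 1. Within experiments the treated signal was 2.38, 2.54 and 8.31 times the untreated one. The log2 difference was 1.75 ± 0.54 with a 95% interval of 0.58 to 2.92 (limma, adjusted p = 0.205 unblocked, 0.0211 blocked). The treated array of experiment 3 weighed on its size: the difference was 1.04 without that array and 2.36 without the treated array of experiment 1, where it was called (limma, adjusted p = 0.0461). With the block it was not called without experiment 3 (1.16, adjusted p = 0.189), nor in the fit with no filter on dim signals (adjusted p = 0.0537).

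The promoter window of IL6 (GRCh38.p14, chr7:22726950-22727249, plus strand) is printed with a match to GGANTTTCC in capitals, a string of the kind NF-kappaB binds. Both strands of each window were searched for it and for TGANTCA, a string of the kind AP-1 binds. Of all 35116 windows 1.64% held the former and 7.71% the latter. The match began 72 bases before the start, and the window held 7 CG dinucleotides.

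IL6: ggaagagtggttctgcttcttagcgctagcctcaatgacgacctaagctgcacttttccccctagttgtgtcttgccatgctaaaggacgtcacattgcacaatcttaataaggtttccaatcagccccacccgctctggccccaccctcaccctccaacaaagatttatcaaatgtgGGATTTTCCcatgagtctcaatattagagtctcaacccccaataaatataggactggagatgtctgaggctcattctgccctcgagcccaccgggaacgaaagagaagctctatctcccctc

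The other cytokines that use IL6ST differed less. LIF, which maintains stem cells and acts on many epithelia, read 1138, 371 and 601 untreated and 1110, 670 and 953 treated. The groups overlapped, experiment 1 was flat, and the log2 difference of 0.48 ± 0.37 had a 95% interval of -0.31 to 1.27 (limma, adjusted p = 0.626 unblocked, 0.28 blocked). Leaving out 1 array moved it between 0.11 (without untreated 2) and 0.89 (without untreated 1). IL11, a cytokine of stromal and epithelial repair, was below the filter, and its probe sets went different ways. At 206924_at it read 113, 57.3 and 11.7 untreated and 6, 7.5 and 13.9 treated. At 206926_s_at it read 11.1, 70.7 and 53.8 untreated and 172, 28.9 and 27.4 treated, so in experiment 1 one probe set fell from its highest value and the other reached it. Without the filter they differed by -1.35 ± 0.55 (limma, adjusted p = 0.452 unblocked, 0.278 blocked) and 0.38 ± 0.68 (adjusted p = 0.906 unblocked, 0.858 blocked).

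**Figure D2:**
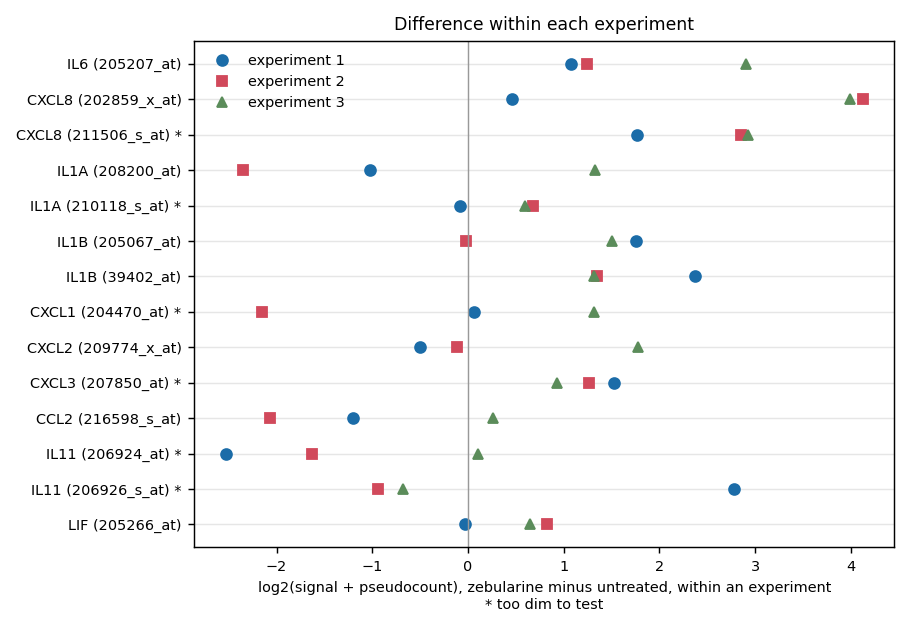
Log2 difference between the treated and the untreated array of each experiment for the 14 probe sets (points, 1 per experiment), on the log2(signal + 16.34) scale. For CXCL8, IL6, IL1B 39402_at and CXCL3 all 3 points lie above 0, and for IL1A 208200_at, CXCL2 and CCL2 experiment 3 lies above 0 with the other 2 below it.

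CXCL8, the chief neutrophil attractant in humans, had the largest difference among the tested member probe sets. At 202859_x_at its signals were 151, 43.2 and 82.8 in untreated experiments 1, 2 and 3 and 214, 1021 and 1556 in the treated ones. The treated arrays of experiments 2 and 3 were far above all others, and that of experiment 1 stood just above the untreated range. The ratios of treated to untreated signal were 1.41, 23.6 and 18.8. The log2 difference was 2.86 ± 0.59 with a 95% interval of 1.57 to 4.14 (limma, adjusted p = 0.0532 unblocked, 0.0154 blocked). Without the treated array of experiment 1 it was 3.68 (limma, adjusted p = 0.00691), and no other omission of 1 array gave a call. With the block it was called without each experiment in turn, at 4.06, 2.22 and 2.29 without experiments 1, 2 and 3.

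The second CXCL8 probe set, 211506_s_at, was too dim for the filter but moved alike, reading 6.9, 21.9 and 56.5 untreated and 62.6, 261 and 536 treated. In the fit without a filter it differed by 2.51 ± 0.71 (limma, adjusted p = 0.236 unblocked, 0.0282 blocked). In experiment 1 both its signals lay under the filter level. Probe sets ending in _x_at can bind transcripts of other genes and those ending in _s_at can bind several transcripts, so the 2 probe sets need not measure the same transcripts.

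The CXCL8 promoter window (GRCh38.p14, chr4:73740319-73740618, plus strand) is shown with its 2 matches in capitals, TGANTCA beginning 137 bases and GGANTTTCC 91 bases before the start. It was the 1 of the 9 windows of 8 members that held both strings, and it had 4 CG dinucleotides.

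CXCL8: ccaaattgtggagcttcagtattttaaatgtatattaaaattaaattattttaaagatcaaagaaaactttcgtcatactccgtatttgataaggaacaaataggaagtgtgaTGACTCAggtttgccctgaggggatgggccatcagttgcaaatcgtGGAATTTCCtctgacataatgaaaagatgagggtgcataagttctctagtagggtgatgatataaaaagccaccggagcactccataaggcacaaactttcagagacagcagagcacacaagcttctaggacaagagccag

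CXCL1, CXCL2 and CXCL3 are close relatives of CXCL8 that act through CXCR2. CXCL2 read 481, 806 and 95.9 untreated and 336, 743 and 367 treated, lower in experiments 1 and 2 and higher in experiment 3. Its log2 difference of 0.39 ± 0.58 had a 95% interval of -0.86 to 1.63 (limma, adjusted p = 0.827). The low untreated array of experiment 3 set the sign, since the difference was -0.45 without it. CXCL3 was dim on every array, at 11, 15.2 and 34.1 untreated and 62.3, 59.5 and 79.8 treated. Its treated arrays nevertheless all lay above the untreated ones, and without the filter it differed by 1.24 ± 0.50 (limma, adjusted p = 0.435 unblocked, 0.265 blocked). CXCL1 read 51.4, 90.4 and 58.7 untreated and 54.4, 7.6 and 171 treated, with no common direction (limma without the filter, -0.26 ± 0.69, adjusted p = 0.941).

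The promoters of these 3 genes are alike, and the stretch around the shared GGANTTTCC match is printed to set it beside that of CXCL8. The 300-base windows were 80% identical between CXCL1 and CXCL2, 84.7% between CXCL1 and CXCL3 and 78.7% between CXCL2 and CXCL3, while CXCL8 shared 54.7%, 57.3% and 57% of bases with CXCL1, CXCL2 and CXCL3. All 3 held 22 to 24 CG dinucleotides, above the median window, against 4 in CXCL8. The stretches lie at chr4:73869275-73869374 (CXCL1, plus strand), chr4:74099213-74099312 (CXCL2, minus strand) and chr4:74038708-74038807 (CXCL3, minus strand) of GRCh38.p14, with the match 77 or 78 bases before the start in capitals.

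CXCL1: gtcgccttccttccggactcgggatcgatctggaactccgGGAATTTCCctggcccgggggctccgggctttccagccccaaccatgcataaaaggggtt

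CXCL2: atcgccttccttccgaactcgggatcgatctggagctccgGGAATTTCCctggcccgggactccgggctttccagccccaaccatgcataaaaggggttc

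CXCL3: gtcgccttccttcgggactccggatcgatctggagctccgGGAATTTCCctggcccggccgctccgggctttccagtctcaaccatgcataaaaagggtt

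The GGANTTTCC string was thus present in the windows of CXCL8 and IL6, which were called higher with the block. It was also present in the windows of CXCL2, which was tested and not called, and of CXCL1 and CXCL3, which were below the filter. In the blocked fit with no filter CXCL1 and CXCL3 were not called, and neither was IL6 (limma, adjusted p = 0.0537). The string was not matched in the window of IL1B. With the block IL1B was called at 39402_at and not at 205067_at (limma, adjusted p = 0.2). The matches are letters in a window and say nothing of whether a factor was bound.

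**Figure D3:**
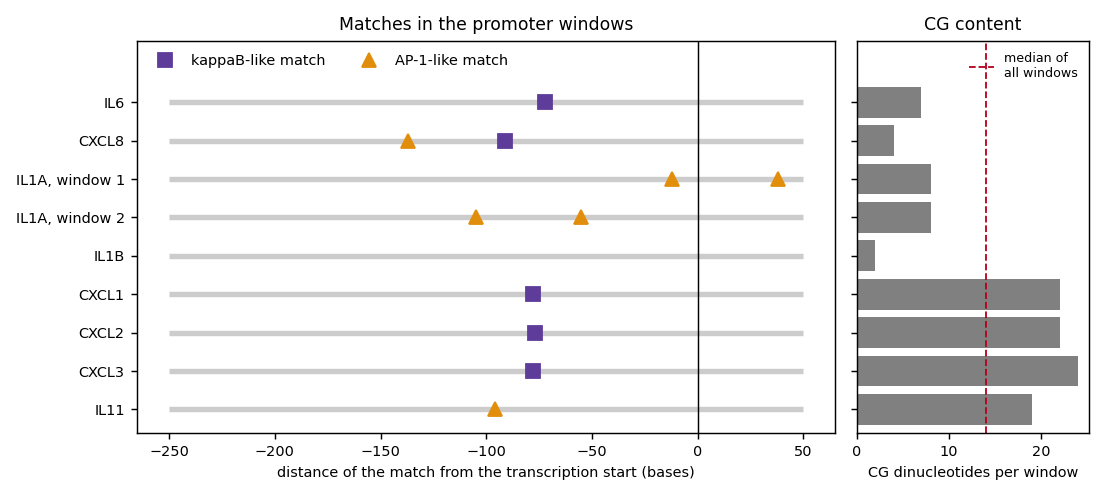
Distance of each string match from the transcription start (left, in bases) and number of CG dinucleotides (right, bars) in the 300-base RefSeq promoter windows of 8 members, 2 of them for IL1A. The kappaB-like matches lie 72 to 91 bases before the start in IL6, CXCL8, CXCL1, CXCL2 and CXCL3, and the dashed line marks the median of 14 CG over all windows.

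Among the protein-coding genes of chromosome 4 the RefSeq annotation puts CXCL8, CXCL6, PF4V1, CXCL1, PF4, PPBP, CXCL5, CXCL3 and CXCL2 next to each other in this order. Of these 9 neighbours, looked up for their position after the values of the members were known, CXCL8 and CXCL2 were bright enough to test. CXCL6, a neutrophil attractant and the next protein-coding gene after CXCL8, read 6.6, 44.9 and 17.5 untreated and 27.5, 2.1 and 22 treated. CXCL5, another, read 68.1, 4.4 and 29.1 untreated and 6.6, 30.8 and 15.1 treated. Neither had a common direction over the 3 experiments, and both (CXCL5 at the brightest of its 3 probe sets) stayed under the filter level on all arrays.

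CCL2, the monocyte attractant, read 123, 392 and 242 untreated and 44, 80.7 and 294 treated. It was lower in experiments 1 and 2 and slightly higher in experiment 3, and the groups overlapped. The log2 difference of -1.003 ± 0.57 had a 95% interval of -2.23 to 0.23 (limma, adjusted p = 0.503 unblocked, 0.197 blocked). Without the treated array of experiment 3 it was -1.68 (adjusted p = 0.246), and without that of experiment 1 it was -0.49 (adjusted p = 0.755).

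**Figure D4:**
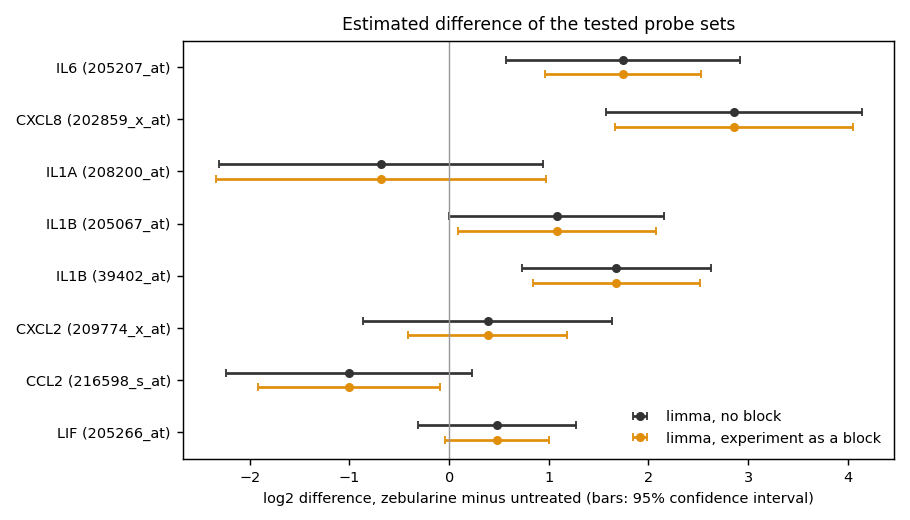
Estimated log2 difference, zebularine minus untreated, of the 8 tested member probe sets, with 95% confidence intervals from limma without (dark) and with (orange) the experiment as a block. Both intervals of CXCL8, IL6 and both IL1B probe sets lie above 0, without adjustment for multiple tests, and those of IL1A, CXCL2 and LIF cross 0.

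The receptors of these cytokines were unequally present. Of 14 receptor and decoy genes 7 were tested and 0 were called in limma with or without the block, where 0.642% of 7938 tested genes were called without it and 4.45% with it (at the brightest probe set of each gene). IL6ST, the shared signalling subunit, read 2264 to 2709 untreated and 2711 to 3199 treated, a log2 difference of 0.22 ± 0.23 (limma, adjusted p = 0.733). IL1R1 read 754, 2670 and 1282 untreated and 1624, 830 and 1039 treated, with no common direction (-0.29 ± 0.40, adjusted p = 0.813, and 0.18 without untreated 2). Its partner IL1RAP differed by 0.42 ± 0.50 (adjusted p = 0.779), the IL6 receptor gene IL6R by 0.35 ± 0.57 (adjusted p = 0.844) and the IL11 receptor gene IL11RA by -0.04 ± 0.50 (adjusted p = 0.985). Each of these 3 changed sign when 1 array was left out. The LIF receptor gene LIFR was not tested and read 13.1 to 165. The chemokine receptors were dim and not tested: CXCR1 read 6.7 to 61.8, CXCR2 6.1 to 54.2 and CCR2 7.8 to 65.5, below the filter level on all arrays. At CXCR2 all treated arrays, at 23, 26 and 54.2, lay above the untreated ones, at 11.1, 6.1 and 17.7. CXCR1 and CCR2 overlapped between the groups and had no common direction.

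Genes that relay the receptor signal or process interleukin-1 did not pass. Of 18 such genes 16 were tested and 0 called in limma with or without the block, with a median log2 difference of -0.0024 against -0.01 over all tested genes. The kinase gene JAK1, which acts on IL6ST, read 3612, 4223 and 4621 untreated and 2969, 2122 and 3062 treated. All treated arrays lay below the untreated ones, by -0.62 ± 0.25 on the log2 scale (limma, adjusted p = 0.322 unblocked, 0.085 blocked). In 2 others of the 16 tested genes, named after their values were seen, all treated arrays lay above the untreated ones. That was so for 8.71% of all tested probe sets. JAK2, a second kinase of these receptors, read 113.3, 32.6 and 60.6 untreated and 152.9, 125.3 and 226.7 treated (1.19 ± 0.48, limma, adjusted p = 0.33 unblocked, 0.15 blocked). MAP3K7, a kinase of the interleukin-1 pathway, read 322.2, 297.1 and 146.8 untreated and 507.3, 340.2 and 351.1 treated (0.66 ± 0.34, limma, adjusted p = 0.443 unblocked, 0.183 blocked), and differed by 0.33 without untreated 3. IRAK1, another kinase of the interleukin-1 pathway, differed by -0.09 ± 0.24 (adjusted p = 0.911, and 0.05 without zebularine 1).

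Among 25 regulators of these genes, all tested, the median difference was -0.08. They included the NF-kappaB subunits and inhibitors, the AP-1 and C/EBP factors and proteins of the ZFP36 family that destabilise cytokine mRNA. CEBPD, a C/EBP factor that activates IL6, fell: it read 1883, 1308 and 1161 untreated and 650, 301 and 440 treated. Every treated array was below every untreated one, and a relation of CEBPD to the IL6 signals was not tested. The log2 difference of CEBPD was -1.65 ± 0.31 (limma, adjusted p = 0.0397 unblocked, 0.00371 blocked). It kept its call in 1 of 6 fits that left out an array, that without zebularine 1, with differences of -1.92 to -1.38 and adjusted p of 0.0254 to 0.225. Of the 9 fits on all arrays 7 called CEBPD. The unblocked fit with no filter on dim signals and the fit without the intensity trend did not. EGR1, an immediate early transcription factor, read 874, 1528 and 215 untreated and 144, 840 and 19 treated, lower in each experiment. It fell with the block (-2.01, limma, adjusted p = 0.00814, and 0.0612 without experiment 1) but was not called without it (adjusted p = 0.387), where the spread between experiments was wide. The other 23 regulators were not called in either fit. In CHUK and IKBKB, named after their values were seen, all treated arrays lay above the untreated ones. That was so for 8.71% of all tested probe sets. CHUK read 295, 243.9 and 269.3 untreated and 437.5, 348.4 and 427.2 treated (0.56 ± 0.27, limma, adjusted p = 0.416 unblocked, 0.21 blocked). IKBKB read 451, 319 and 414.6 untreated and 562.3, 471 and 584.6 treated (0.44 ± 0.26, limma, adjusted p = 0.524 unblocked, 0.298 blocked). Over all tested genes 0.642% were called without the block and 4.45% with it.

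**Figure D5:**
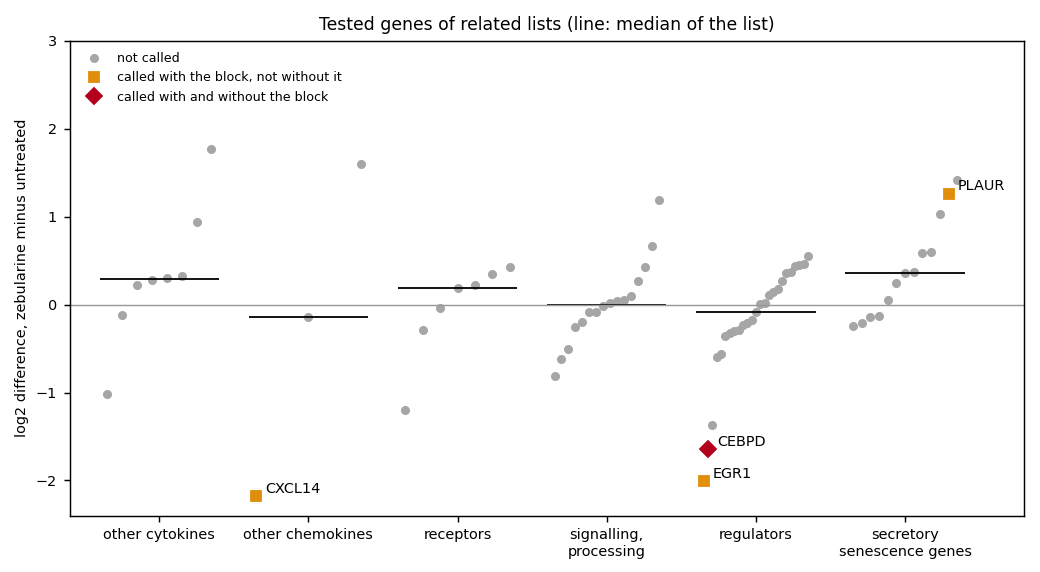
Log2 difference, zebularine minus untreated, of the tested genes of 6 related lists (points at the brightest probe set of each gene), with the median of each list as a line. CEBPD, at -1.65, is called by limma with and without the experiment as a block, while CXCL14, EGR1 and PLAUR are called with the block and not in the same fit without it.

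Other cytokines and chemokines gave 1 call, with the block, where 4.45% of all tested genes were called. Of 20 other cytokine genes 17 were on the array, 8 tested and 0 called in limma with or without the block. The median log2 difference was 0.29, and 6 of the 8 had a positive one. The brightest were IL32 and TGFB1. IL32 differed by -0.12 ± 0.27 (limma, adjusted p = 0.892), with -0.31 to -0.015 when 1 array was left out and 0.029 in the blocked fit without experiment 1. TGFB1, a growth-restraining and profibrotic factor, differed by -1.02 ± 0.45 (limma, adjusted p = 0.373 unblocked, 0.116 blocked), and by -0.45 without untreated 1. It was called lower in the blocked fit without experiment 2 (-1.67, limma, adjusted p = 0.0014). IL12A, named after its values were seen, read 2.9, 60.7 and 14.7 untreated and 116.1, 107.8 and 95.7 treated (1.77 ± 0.70, limma, adjusted p = 0.314 unblocked, 0.184 blocked). All its untreated signals lay under the filter level and all its treated ones above it. It was therefore tested only through its treated arrays, which limits what its test can show. The median and the count of positive differences given above for the other cytokines include IL12A. Of 20 other chemokine genes 17 were on the array and 3 tested, of which 1 had a positive difference. That was CCL5, also named afterwards, at 3.2, 41.8 and 88.1 untreated and 13, 101.3 and 936.4 treated (1.60 ± 1.04, limma, adjusted p = 0.564 unblocked, 0.173 blocked). CXCL14, a chemokine made by many resting epithelia, read 180, 194 and 279 untreated and 24.7, 14.4 and 87.2 treated. All treated arrays lay below the untreated ones, and it fell with the block (-2.18, limma, adjusted p = 0.0243) and was not called without it (adjusted p = 0.0962). The blocked call was lost without experiment 1 (adjusted p = 0.0821) and without experiment 3 (adjusted p = 0.0713).

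Of 20 other genes linked to the senescent secretory programme 13 were tested, with a median log2 difference of 0.36, against -0.01 over all tested genes. Within experiments 1, 2 and 3 the median was 0.07, 0.97 and 0.16, so it was largest in experiment 2. The 13 tested genes included the cell cycle inhibitor genes CDKN1A and CDKN2A, which are not secreted products. With the block 1 of the 13 was called, where 4.45% of all tested genes were. PLAUR, the urokinase receptor, read 868, 490 and 619 untreated and 1448, 1681 and 1546 treated, with no overlap. It rose with the block (1.26, limma, adjusted p = 0.0141) and was not called without it (adjusted p = 0.0573), except under the stricter filter on dim signals (adjusted p = 0.0498). Its blocked call was kept without each experiment in turn (1.01 to 1.52).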

How the data were processed

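Per the labels, total RNA of 3 untreated and 3 zebularine-treated A-498 cultures was hybridised to 1 Affymetrix array each, and groups and replicate numbers came from the sample titles. The deposited values are linear MAS5 intensities per probe set, per the submitters' processing notes; version and settings are not given here, and detection calls were not used. Dim MAS5 signals are noisy. Of 22277 probe sets, 62 controls were left out.

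Values were taken as log2(signal + 16.34), the pseudocount being the median of all values divided by 8, which understates the change of dim genes. The 13545 probe sets with a signal of at least 78.6 (40th percentile of all values) on 3 or more of 6 arrays were tested with limma 3.58.1 in R 4.3.3 (moderated by eBayes with an intensity trend, two-sided), and Benjamini-Hochberg adjustment ran over all of them. A call is an adjusted p under 0.05. P-values rest on the spread between cultures of 1 line.

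After subtracting group means, arrays sharing a number correlated across probe sets (0.323, 0.21 and 0.272 for experiments 1, 2 and 3), so the numbers pair the arrays, and the fit with the experiment as a block is given where it changes a call.

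Genes were named through the platform annotation where a probe set had 1 symbol (19064 of 22215; 1043 had several and 2108 none). By Entrez number 19052 symbols matched RefSeq, which changed 0. Promoter windows (250 bases before to 50 after the start) came from RefSeq, GRCh38.p14, and were available for 8 of the 10 members. They were aligned pairwise with Biopython 1.88, identity being the share of 300 window bases. The text names all members, the fixed receptor genes, and of each related or marker list the genes called in either fit or, with none called, the 2 brightest tested, with further genes where stated. The members and lists were chosen with earlier results of these data known. The test was checked on simulated data.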

Additional observations from a re-analysis of the deposited data

How the results depend on the processing

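The direction of CXCL8, IL6, both IL1B probe sets, LIF and CCL2 was the same in all fits run. No member probe set was called without the block in the 6 alternatives that used all arrays (another pseudocount, no filter or a stricter one, quantile normalization, no trend). The count of called member probe sets was 3 with the replicate block and 2 with the block and no filter, where both are CXCL8 probe sets and the calls of IL6 and IL1B are lost. It was 0 to 2 when 1 array was left out. With the block it was 1 to 3 when an experiment was left out. The count over all probe sets, 84, became 572 with the replicate block, 395 with the block and no filter, 55 with a pseudocount of 4.08, 42 without the filter and 6 without the trend. It was 0 to 96 when 1 array was left out (0 without zebularine 2) and 194, 1023 and 335 with the block without experiments 1, 2 and 3. Over such omissions CXCL2 ran from -0.45 to 0.99 (-0.31 to 0.83 with the block) and IL1A from -1.27 to 0.014 (-1.69 to 0.15 with the block). The cause was not tested. The stricter filter left no value for CXCL8, IL6, IL1A or IL1B. Dim signals limit CXCL1, CXCL3 and IL11, which were tested in the fits without the filter alone and not called there.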

Other observations

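Over the 6 arrays the tested genes with a log2 profile most like that of CXCL8 (202859_x_at) were NOC3L, HCG4 and STEAP1, at a Pearson r of 0.994, 0.994 and 0.986. For LIF they were TTC17, TRIM21 and RGS12, at 0.999, 0.994 and 0.982. CXCL8 and LIF were used because they had the highest signals among the tested members. With 6 arrays and 7938 genes such values describe the profiles and nothing more.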
